A study of Mus musculus with 21 samples.

Results

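The comparison is between mammary tumours of mice treated with BYL719 (alpelisib, an inhibitor of PI3K-alpha) that were labelled as relapsed and those labelled as stable. It takes 14 of the 21 tumours in which RNA was measured, 7 relapse and 7 stable, chosen by their titles, and describes all genes. Every animal had the genotype WAP-Cre/PIK3CA-H1047R, and so did the 7 tumours given the vehicle DMSO, which serve here for the estimate of spread. In these mice the Cre recombinase, under the promoter of a milk protein gene, acts in mammary epithelium and activates the H1047R form of the PI3K-alpha catalytic subunit, so that stroma, blood cells and any neighbouring tissue in a tumour do not share that switch. The sample labels give BYL719_Relapse, BYL719_Stable or DMSO as the treatment, whereas the text on the study design speaks of responding and stable groups and does not relate responding to relapse. Neither the labels nor the design text states dose, duration, age or time of collection.

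The titles also carry a code of 6 digits, whose meaning the labels do not give. The relapse tumours had 7 different codes and the stable tumours 4, of which 2 also occurred in the relapse group (relapse 5 with stable 5, and relapse 6 with stable 7). Stable 1 and 6 shared a code, as did stable 2, 3 and 4. Where a code is an animal, tumours of 1 code are not independent, and the p-values below reflect the spread among tumours. Total counts were 17722622 to 21431465 in relapse tumours and 13337848 to 24648463 in stable tumours. Stable 1 stood apart from the other 13: it scored 87.2 on the leading principal component (1000 genes of highest variance, 35.7% of it explained), and the next tumour, relapse 4, scored 22.0. Several results that rest on it are given with and without it. The epithelial genes Epcam, Krt8 and Krt14 were present in every tumour (lowest values 394, 121 and 105 CPM, counts scaled to a common library total).

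PI3K-alpha passes signals from insulin, IGF1 and ERBB family receptors to AKT and mTOR, and its activating mutations are frequent in breast cancer. The RAS and ERK pathway runs beside it and is held in check by GTPase-activating proteins such as the product of Nf1. The series is about loss of NF1 and resistance to inhibitors of PI3K-alpha, and this comparison addresses which transcripts separate tumours that relapsed under the inhibitor from those that did not. Mammary glands also lie beside skin muscle and fat, and adult skeletal muscle consists of slow, oxidative fibres and fast fibres that can be told apart by the myosin, troponin and related genes they use.

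No gene passed the test between relapse and stable tumours. With p-values adjusted by Benjamini and Hochberg's method, the quasi-likelihood test of edgeR called 0 of 15792 genes (0%), and the lowest adjusted p was 0.125, for Myh6, Myh7 and Myl2. Without adjustment, 377 genes (2.39%) were higher in relapse tumours and 374 genes (2.37%) lower at a p under 0.05, in all 751 genes. These shares are the background for the counts of list members below. The 95% interval of the log2 fold change lay within 2-fold in both directions for 72.4% of the genes tested, and for 79.0% of the 13798 genes whose mean log2 CPM reached 1. DESeq2's Wald test called 6 genes (0.038%), all higher in relapse tumours: Myh6, Myh7, Myl2, Ankrd2, Tnnc1 and Cryab. edgeR called 4 of these (0.0252%), Myh6, Myh7, Myl2 and Ankrd2, when relapse 4 was left out. It called 1 gene (0.0063%), Fhl1, when stable 5 was left out. Differences below are therefore given as values, and none of the genes is said to have changed.

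The lowest p-values belonged to genes of slow muscle fibres and heart. Myh7, the slow and cardiac myosin heavy chain (Entrez gene 140781, chromosome 14, 54970684 to 54994626, GRCm38.p6), was at 182, 210.3, 6.11, 0.2, 20.9, 150.2 and 115 CPM in relapse 1 to 7 and at 0.652, 1.29, 0.647, 0.11, 1.23, 0.251 and 0.14 CPM in stable 1 to 7. Relapse 4 lay among the stable tumours, and the other 6 relapse tumours lay above every stable tumour. The log2 fold change was 7.31 ± 1.31 (SE; 95% interval 4.57 to 10.04; edgeR adjusted p = 0.125), and it was 7.53 with an adjusted p = 0.0129 without relapse 4. Vehicle tumours held 0 to 11.4 CPM of Myh7.

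Myh6, the second cardiac myosin heavy chain, which neighbours Myh7 on chromosome 14, was at 43.1, 52.3, 1.81, 0.0998, 6.19, 37.7 and 27.5 CPM in relapse and 0.174, 0.592, 0.287, 0, 0.112, 0.0503 and 0.0935 CPM in stable tumours (6.99 ± 1.23, edgeR adjusted p = 0.125). Its counts were 0.237 to 0.297 of those of Myh7 in the 6 relapse tumours other than relapse 4. These genes are near-identical copies in parts, and the sources used here do not state how reads that match both were counted, so that the Myh6 level is uncertain. Myl2, the regulatory light chain of slow and ventricular myosin, was at 20, 22.6, 0.572, 0, 2.56, 14.4 and 12.5 CPM in relapse and 0.217, 0.161, 0.0718, 0.0549, 0.335, 0.0503 and 0.14 CPM in stable tumours (6.06 ± 1.12, edgeR adjusted p = 0.125). It followed the same order, with relapse 1, 2, 6 and 7 highest and relapse 4 at 0.

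**Figure D1:**
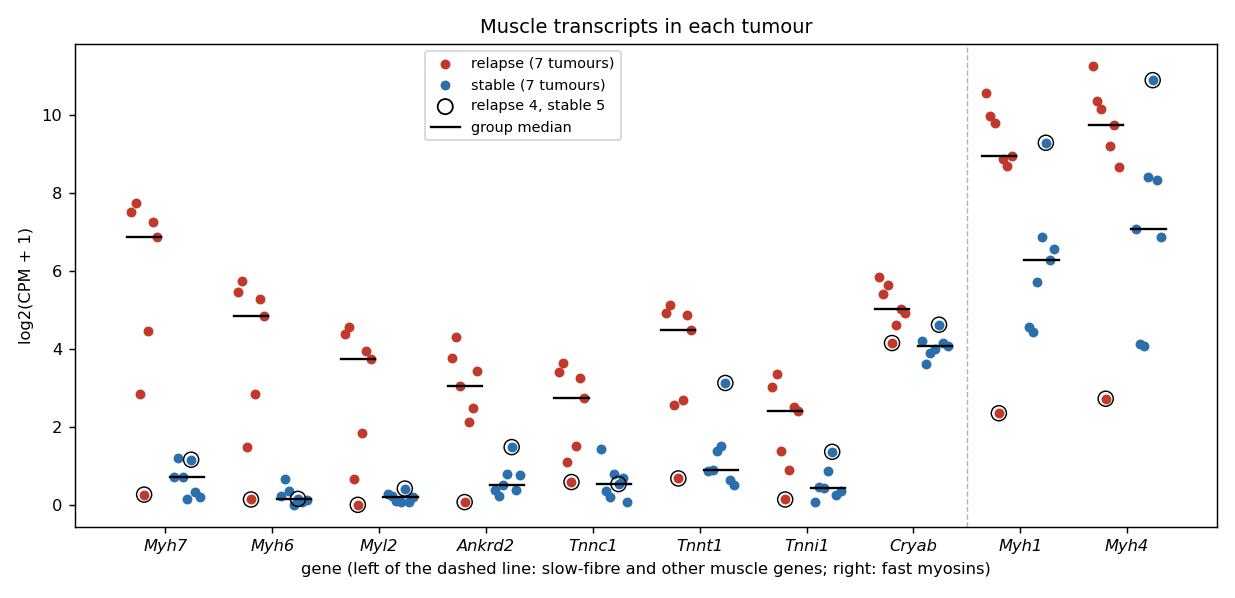
Levels of 10 muscle genes in each tumour as log2(CPM + 1), with relapse tumours at the left and stable tumours at the right of each gene, black bars at the group medians and rings around relapse 4 and stable 5. For Myh7, Myh6 and Myl2 every relapse tumour except relapse 4 lies above all stable tumours, while for the fast myosins Myh1 and Myh4 stable 5 lies among the relapse tumours.

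The regions around the annotated starts of Myh7, Myh6 and Tnnc1 are printed here because these 3 slow-fibre and cardiac genes lie on 1 chromosome and are each described in this comparison. Each run is 300 bases from RefSeq on GRCm38.p6, from 250 before to 50 after the start, written 5′ to 3′ on the gene's strand; for Myh7 it is the first of 2 listed windows. Capitals mark matches to the M-CAT motif CATTCC on either strand, the site class that TEAD factors bind in muscle genes.
Myh7, chr14:54994577-54994876, minus strand: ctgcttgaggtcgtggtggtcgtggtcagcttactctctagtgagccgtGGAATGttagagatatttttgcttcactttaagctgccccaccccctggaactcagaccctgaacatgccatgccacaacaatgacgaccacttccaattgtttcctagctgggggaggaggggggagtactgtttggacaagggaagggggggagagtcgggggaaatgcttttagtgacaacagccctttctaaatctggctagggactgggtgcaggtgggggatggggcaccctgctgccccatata
Myh6, chr14:54966558-54966857, minus strand: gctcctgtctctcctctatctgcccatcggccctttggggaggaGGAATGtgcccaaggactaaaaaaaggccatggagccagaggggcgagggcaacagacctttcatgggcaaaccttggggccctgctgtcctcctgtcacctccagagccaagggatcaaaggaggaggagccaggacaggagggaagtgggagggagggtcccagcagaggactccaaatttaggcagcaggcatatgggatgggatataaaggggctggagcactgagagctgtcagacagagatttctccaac
Tnnc1, chr14:31208062-31208361, plus strand: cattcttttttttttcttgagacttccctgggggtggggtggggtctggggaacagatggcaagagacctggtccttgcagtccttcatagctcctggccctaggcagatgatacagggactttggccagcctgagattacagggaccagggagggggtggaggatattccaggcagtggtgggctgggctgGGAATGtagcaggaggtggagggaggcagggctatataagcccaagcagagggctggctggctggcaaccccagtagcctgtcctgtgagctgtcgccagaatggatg
Each window held 1 M-CAT match, which 14.7% of all 32851 promoter windows of that length also hold. The E-box letters CANNTG, read on both strands, occurred 2 times in the Myh7, 1 time in the Myh6 and 2 times in the Tnnc1 window without overlapping the M-CAT match, and 72.3% of all windows hold them. These matches describe the letters and not bound sites.

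Of 13 tested slow-fibre genes, 10 were higher in relapse tumours at an unadjusted edgeR p under 0.05, against 2.39% of all genes. In this list 0 were lower and 0 passed the adjusted test. The list's median log2 fold change was 2.32, against -0.01 over all genes. The count was 9 to 10 and the median 2.11 to 3.41 when single tumours were left out. Its summed level was 563 to 1132 CPM in relapse and 500.0 to 599 CPM in stable tumours. Tnnc1, the slow and cardiac troponin C, was at 9.59, 11.5, 1.14, 0.499, 1.84, 8.51 and 5.69 CPM in relapse and 1.69, 0.269, 0.144, 0.714, 0.447, 0.603 and 0.0468 CPM in stable tumours. The relapse tumours other than 3 and 4 lay above all stable tumours (log2 fold change 3.27 ± 0.803). The slow troponin T gene Tnnt1 was at 0.599 to 34 CPM in relapse and 0.421 to 7.71 CPM in stable tumours (3.16 ± 0.87), and the slow troponin I gene Tnni1 at 0.0998 to 9.27 and 0.0434 to 1.56 CPM (2.94 ± 0.79). Both were named after their values were seen.

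Further muscle genes outside that list were also lowest, among relapse tumours, in relapse 4, but in several of them relapse 3 was among the highest. Ankrd2, a stretch-responsive protein of slow fibres, was at 12.6, 18.9, 7.3, 0.0499, 3.39, 4.56 and 9.86 CPM in relapse and 0.304, 0.161, 0.431, 0.714, 1.79, 0.302 and 0.701 CPM in stable tumours (3.68 ± 0.79, edgeR adjusted p = 0.597; 0.0263 without relapse 4). Cryab, a small heat shock protein abundant in heart and slow muscle, was at 56, 41.1, 49, 16.7, 23.5, 31.5 and 29 CPM in relapse and 17.3, 11.2, 13.8, 14.9, 23.5, 16.8 and 15.8 CPM in stable tumours. Relapse 4 and 5 lay below the highest stable tumour, stable 5, and the others above it (1.12 ± 0.25, edgeR adjusted p = 0.725). Ankrd23, a relative of Ankrd2, stood at 1.93 ± 0.499, and the skeletal actin gene Acta1 at 1.16 ± 0.31, with 169 to 1016 CPM in relapse and 154 to 487 CPM in stable tumours. Fhl1, a LIM protein of muscle, was at 138, 102, 105, 23.8, 38.8, 61.4 and 85.5 CPM in relapse and 10.7, 8.82, 11.9, 22, 103, 20.3 and 12.7 CPM in stable tumours. Without stable 5 its log2 fold change was 2.46 with an edgeR adjusted p = 0.0223, against 1.55 and 0.99 with all tumours.

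Fast-fibre genes were higher in the same direction with a wider overlap. All 18 tested members of the fast-fibre list had a positive log2 fold change, with a median of 1.68. Of the 18, 5 had an unadjusted edgeR p under 0.05, among them Acta1, described above. The summed level of the list was 291 to 30286 CPM in relapse and 493 to 20548 CPM in stable tumours. It was lowest in relapse 4 and, among stable tumours, highest in stable 5. Myh4, the fastest myosin heavy chain, was at 2431, 1299.7, 1125, 5.59, 586, 849.8 and 400.5 CPM in relapse and 133, 16.3, 15.9, 338, 1888, 319 and 115 CPM in stable tumours (1.25 ± 1.18, unadjusted p = 0.303). Myh1 (2.25 ± 1.04) and Myh2 (2.06 ± 0.95), the heavy chains of the intermediate fast fibres, lay at 4.09 to 1512 and 2.49 to 679 CPM in relapse tumours and at 20.7 to 620.3 and 9.04 to 368 CPM in stable tumours. Muscle creatine kinase Ckm was at 2.02 and titin, Ttn, at 1.56 (unadjusted p = 0.0818 and 0.155). When single tumours were left out in turn, that count ran from 1 to 18, with 12 without relapse 4 and 18 without stable 5, and the median from 1.33 to 2.88. Over all genes, 1430 of 15866 had an unadjusted edgeR p under 0.05 without stable 5, against 751 of 15792 with it.

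The mix of myosins differed between tumours that held similar amounts of muscle transcripts. Of the counts of Myh1, Myh2, Myh4 and Myh7 together, Myh7 made up 3.79, 7.00, 0.259, 1.61, 1.61, 8.98 and 8.57% in relapse 1 to 7. In stable 1 to 7 it made up 0.388, 2.73, 0.639, 0.0219, 0.0427, 0.0569 and 0.0548%. Stable 5, with a sum of 2878 CPM, was within the range of the relapse tumours in that sum but had a lower Myh7 share than all of them. The shares rest on 2 to 24 Myh7 counts in stable tumours, 22 of them in stable 5, on 4 counts in relapse 4 and on 128 to 4719 counts in the other relapse tumours. With the fast-fibre score of each tumour as a covariate, Myh7 stood at 5.37 (unadjusted p = 0.00226, edgeR adjusted p = 0.999), and 6 slow-fibre genes had an unadjusted p under 0.05, with a list median of 0.78. In that fit Ankrd2 stood at 1.798, Ankrd23 at 0.88, Cryab at 0.71 and Acta1 at 0.49. Acta1 is itself a member of the fast-fibre list that makes up the score, so its value there is in part set by the fit. In bulk RNA, more cells of a type and more RNA per cell cannot be told apart. Tissue composition was not measured, and the part of muscle tissue in these results was not tested.

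**Figure D2:**
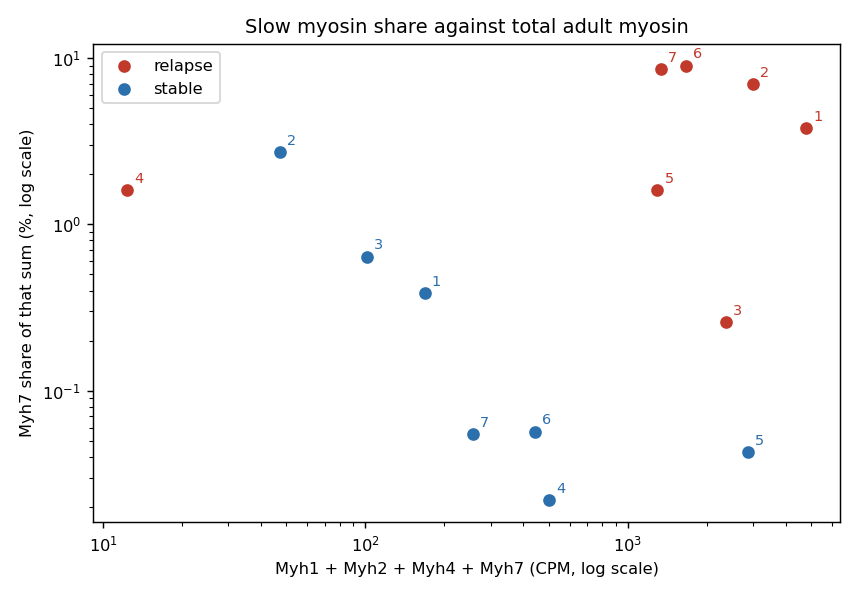
Share of Myh7 in the summed CPM of Myh1, Myh2, Myh4 and Myh7 (percent, log scale) against that sum (log scale), 1 numbered point per tumour. At sums above 1000 CPM, 6 relapse tumours have shares of 0.259 to 8.98% and stable 5 has 0.0427%.

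Among 11 tested myogenic regulators and satellite cell genes, 4 were higher at an unadjusted edgeR p under 0.05, against 2.39% of all genes. The median of the 11 was 1.47. The count ran from 1 to 8 when single tumours were left out, lowest without relapse 1 and highest without stable 5, and the median was 0.35 with the fast-fibre covariate. Chrna1, a subunit of the muscle acetylcholine receptor, was at 0.15 to 7.67 CPM in relapse and 0.161 to 2.79 CPM in stable tumours (1.93 ± 0.78). The embryonic myosin gene Myh3 was at 0.0998 to 21.7 and 0.215 to 8.44 CPM (2.38 ± 0.99), and desmin, Des, at 9.18 to 279 and 6.67 to 184 CPM (1.79 ± 0.75). In all 3 genes relapse 4 was the lowest relapse tumour and stable 5 the highest stable tumour.

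A different set of relapse tumours was high in brown fat genes. Ucp1, the uncoupling protein of brown and beige fat, was at 181, 0.535, 0.811, 0.15, 52.7, 0.467 and 95.1 CPM in relapse and 1.09, 2.8, 6.39, 0.11, 0.279, 10.4 and 0.234 CPM in stable tumours. Relapse 1, 5 and 7 lay above every stable tumour and the other 4 relapse tumours lay below the highest stable tumour (3.97 ± 1.495, unadjusted p = 0.0151). The lipid droplet gene Cidea followed, at 69.7, 6.33, 10.4, 5.19, 22, 11.5 and 91.1 CPM in relapse and 1.56, 9.47, 14.4, 9.01, 3.07, 12.5 and 5.66 CPM in stable tumours (1.96 ± 0.85). Cox8b and Cox7a1, cytochrome c oxidase subunits of muscle and brown fat, were at 24.3 and 14.9 CPM in relapse 1 and at 16.1 and 10.9 CPM in relapse 7, with at most 2.46 and 1.96 CPM in stable tumours (3.08 ± 0.9004 and 1.88 ± 0.503; both named after their values were seen). Cpt1b, the carnitine palmitoyltransferase of muscle and brown fat, was at 53, 11, 11, 2.94, 15.7, 9.8 and 35.7 CPM in relapse and 3.3, 4.03, 5.1, 4.07, 11.7, 4.93 and 3.6 CPM in stable tumours (1.92 ± 0.49, edgeR adjusted p = 0.984). Perm1, a muscle regulator of mitochondrial genes, stood at 1.86 ± 0.49. Of 16 adipocyte markers, 2, Ucp1 and Cidea, had an unadjusted p under 0.05, and the median was 0.61. The count ran from 0 to 4 and the median from 0.21 to 1.29 when single tumours were left out, both lowest without relapse 1 and highest without stable 5. Among tumours with the digit 3 in their titles, which hold relapse 1, 3, 5 and 7 and not stable 5, 14 of 16 were higher at that p and the median was 2.26. Over all genes, 1335 of 15684 were at that p in either direction there, against 751 of 15792 with all tumours. The general fat marker Fabp4 was at 673, 98.6, 124, 87.4, 209.5, 41.2 and 553 CPM in relapse and 56.2, 46, 147, 70.6, 252, 141 and 21.6 CPM in stable tumours, highest in relapse 1 and 7. Vehicle tumours held 0 to 9.08 CPM of Ucp1. The summed level of the adipocyte list was 341 to 2572 CPM in relapse and 276 to 1351 CPM in stable tumours, and its part in the Ucp1 values was not tested.

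Red cell transcripts were high in some relapse tumours. The 3 tested erythroid markers were higher at an unadjusted edgeR p under 0.05, against 2.39% of all genes, and 0 passed the adjusted test. Without relapse 2 only 1 of the 3 was at that p and the median was 0.89, against 1.46 with it. The tested and untested markers together had summed levels of 26.6 to 313 CPM in relapse and 17.5 to 63.1 CPM in stable tumours. The alpha globin gene Hba-a2 was at 149, 263, 42.3, 49.8, 60.1, 22.5 and 93.4 CPM in relapse and 36.2, 26.5, 48.2, 39.8, 51.4, 17 and 14.5 CPM in stable tumours (1.54 ± 0.48). Relapse 1, 2, 5 and 7 lay above all stable tumours. The beta globin gene Hbb-bs stood at 1.46 ± 0.55, and Alas2, the heme synthesis enzyme of red cells, at 0.896 ± 0.39. Globin genes occur as near-identical copies, and their separate counts are uncertain.

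A few genes with smaller differences, most of them in the other direction, separated all 14 tumours by group. Among the 15792 genes, 9 (0.057%) were lower in every relapse tumour than in any stable tumour, and 4 (0.0253%) were higher. With 7 tumours per group and this many genes, some separate fully without any effect of the group. The share expected by chance was not computed, and 0 genes passed the adjusted edgeR test. Full separation is therefore given as a description and not as evidence of a difference. The 9 were Hmgb1, Nek1, Kdm5a, Zfp959, Fbxo18, Rspry1, Hdac8, Tmem87b and 1810011O10Rik, and the 4 were H19, Idh2, Nol6 and Mir5046; those outside the naming rule were named after their values were seen. Hmgb1, a chromatin protein (chromosome 5, 149046702 to 149053057), was at 19.3, 17.4, 16.6, 19.4, 13.8, 20.9 and 18.2 CPM in relapse and 28.4, 21.3, 22, 23.8, 21.6, 25 and 24.4 CPM in stable tumours (-0.41 ± 0.11, edgeR adjusted p = 0.984). Vehicle tumours, at 13.4 to 20.7 CPM, lay within or below the relapse values. Hmgb1 has many near-identical pseudogenes, so that its count is uncertain. Tmem87b, a membrane protein, was at 139.6, 107, 130.5, 125, 122, 143 and 126 CPM in relapse and 159.8, 150.0, 169, 143, 152, 160.4 and 153 CPM in stable tumours (-0.29 ± 0.074), and its relative Tmem87a at 107 to 146 and 138 to 193 CPM (-0.36 ± 0.093), with an overlap.

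The histone deacetylase Hdac8 was at 16.1 to 18.2 CPM in relapse and 18.2 to 29.3 CPM in stable tumours (-0.39 ± 0.11), the histone demethylase Kdm5a at 318 to 384 and 389 to 411 CPM (-0.19 ± 0.073), and the kinase Nek1, which acts in cilia and DNA repair, at 59.7 to 83.2 and 84.8 to 140.2 CPM (-0.37 ± 0.11). The DNA helicase Fbxo18 was at 94.8 to 105 and 109 to 123 CPM (-0.16 ± 0.068), Rspry1 at 41.9 to 49.7 and 51.4 to 63 CPM (-0.26 ± 0.072) and the zinc finger gene Zfp959 at 10.2 to 14.5 and 14.8 to 19.3 CPM (-0.38 ± 0.11). The SUMO ligase Pias2 (-0.297 ± 0.081), Pcmtd2 (-0.37 ± 0.103) and the telomere protein gene Terf1 (-0.23 ± 0.071) were lower with overlapping groups. Without stable 1, the log2 fold changes of the 12 genes described here ran from -0.36 for Hmgb1 to -0.14 for Fbxo18. Their signs add no support, because the genes were chosen as lower in relapse tumours. Where the groups do not overlap, leaving out 1 tumour could hardly change the sign.

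Of the genes higher in every relapse tumour, H19, an imprinted noncoding RNA that is abundant in muscle and growing tissue, had the largest difference. It was at 361, 525, 329.9, 299, 271, 313 and 371 CPM in relapse and 87, 111, 212, 248, 130.2, 147 and 189 CPM in stable tumours. Its log2 fold change was 1.14 ± 0.58 with an unadjusted p = 0.0618 when vehicle tumours shared the estimate of spread, and the unadjusted p was 9.44e-05 with the 14 treated tumours alone (edgeR adjusted p = 0.485). Vehicle tumours ranged more widely, at 6.91 to 241 CPM. H19 was at 299 CPM in relapse 4, which held the least muscle RNA. With the fast-fibre score as a covariate its log2 fold change was 1.04, and 0 genes passed the adjusted test in that fit. The part of muscle tissue in the H19 values was not tested. Its imprinted neighbour Igf2 was at 15 to 47.2 CPM in relapse and 1.39 to 30.5 CPM in stable tumours (0.996 ± 0.48). Idh2, the mitochondrial isocitrate dehydrogenase, was at 63.4 to 87.6 and 53.9 to 61.9 CPM (0.301 ± 0.105), and the ribosome assembly gene Nol6 at 33.1 to 44.9 and 27.9 to 33 CPM (0.26 ± 0.093). Mir5046 stood at 0.56 ± 0.197, and in a library of polyadenylated RNA its reads need not come from the mature microRNA.

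The cofactor gene Zfpm1 was at 9.96, 10.1, 8.49, 7.53, 11, 7.78 and 8.23 CPM in relapse and 3.61, 5.86, 5.03, 7.09, 7.66, 5.63 and 5.56 CPM in stable tumours (0.64 ± 0.17, edgeR adjusted p = 0.984), with only stable 5 above the lowest relapse tumour. The tubulin gene Tuba8 was at 5.44 to 14.7 and 2.11 to 5.93 CPM (1.14 ± 0.29). Cry1, a repressor of the circadian clock, was at 14.8 to 23 and 8.95 to 15.7 CPM (0.45 ± 0.14). The vascular growth factor Vegfa was at 80.9, 226, 105, 160.4, 161, 127 and 151 CPM in relapse and 41.2, 144, 79.5, 127, 65.2, 47.5 and 128 CPM in stable tumours (0.68 ± 0.31, unadjusted p = 0.0386), and hexokinase 2, Hk2, at 124, 158, 73.9, 63.1, 122, 75.7 and 100.2 CPM in relapse and 52.9, 60.3, 60.6, 67.7, 75.2, 56.6 and 44.9 CPM in stable tumours (0.78 ± 0.29, unadjusted p = 0.0127). Besides Hk2, Aldoa (0.36 ± 0.17) was the other of 18 glycolysis genes with an unadjusted p under 0.05, and that count was 1 to 3 when single tumours were left out.

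The gene that the series names, Nf1, did not separate the groups. It encodes a GTPase-activating protein that turns RAS off (Entrez gene 18015, chromosome 11, 79339590 to 79581609). Nf1 was at 278, 297, 242, 208, 241, 279.9 and 263 CPM in relapse and 597, 253, 272, 274, 294, 283 and 331 CPM in stable tumours, with 6 of 7 relapse tumours below the stable median. The log2 fold change was -0.35 ± 0.18 (95% interval -0.73 to 0.037; edgeR adjusted p = 0.99). Stable 1 lay apart at 597 CPM, and without it the value was -0.14 (adjusted p = 1). Vehicle tumours held 247 to 459.9 CPM. Counts on a gene do not show whether its protein or sequence is intact.

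Among the 13 RAS GTPase-activating and SPRED genes, 1 was lower and 0 were higher at an unadjusted edgeR p under 0.05, with a median of 0.032. That count was 0 to 2 when single tumours were left out. The gene, Rasa1, was at 349.8, 238, 255, 338, 277, 347 and 341 CPM in relapse and 429, 352, 371, 298, 327, 405 and 395 CPM in stable tumours (-0.26 ± 0.11; -0.22 without stable 1), and the groups overlapped. In the RAS and RAF pathway list, 3 of 18 genes were higher at that p, against 2.39% of all genes, and 0 were lower. Without relapse 2 or relapse 3, 1 was higher, and within title digit 3, 0 were higher and 1 lower. The 3 were the phosphatase Ptpn11 (0.21 ± 0.075), the kinase Map2k2 (0.23 ± 0.091) and Hras (0.25 ± 0.11), with 20.8 to 31 CPM in relapse and 18.4 to 26.1 CPM in stable tumours. Of 16 ERK feedback genes, 0 had an unadjusted edgeR p under 0.05, and the median was -0.014, or 0.29 with 1 such gene without stable 1. The ERK phosphatase gene Dusp6 was at 105, 257, 69.9, 159, 81.8, 176 and 81 CPM in relapse and 535, 86.5, 100.2, 86.5, 75, 106 and 62.8 CPM in stable tumours; its log2 fold change was -0.18 with stable 1 and 0.62 without it (unadjusted p = 0.686 and 0.0397). The cyclin gene Ccnd1 was at 0.35 ± 0.21.

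**Figure D3:**
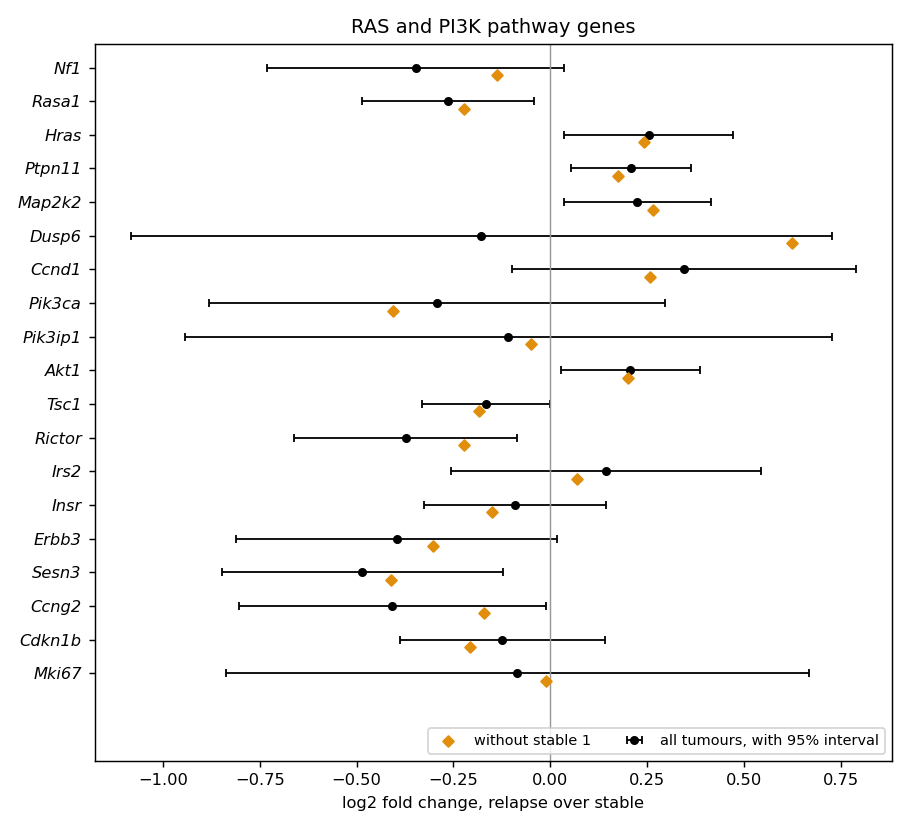
Log2 fold change of relapse over stable for 19 genes of the RAS and PI3K pathways and the cell cycle, with black points and 95% intervals from all tumours and diamonds for the fit without stable 1. No gene passed the adjusted test; Dusp6 is at -0.18 with and 0.62 without stable 1, and Nf1 at -0.35 with and -0.14 without it.

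On the PI3K side, 3 of 24 feedback genes and FOXO targets were lower in relapse tumours at an unadjusted edgeR p under 0.05. Of all genes, 2.37% were lower at that p. In the list 0 were higher, and the median was -0.1. Leaving out single tumours gave 2 to 4 lower and 0 to 1 higher. Many of these genes are repressed when PI3K and AKT are active. Sesn3, a stress-induced regulator of mTORC1, was at 83.6, 70.5, 94.8, 94.7, 69, 111 and 61.7 CPM in relapse and 153, 92.6, 101, 96, 66.5, 159 and 151 CPM in stable tumours (-0.49 ± 0.17; -0.41 without stable 1). Rictor, a subunit of mTORC2, was at 242 to 312 and 252 to 563 CPM (-0.37 ± 0.14), and the cyclin gene Ccng2 at 83.8 to 126 and 81.9 to 253 CPM (-0.41 ± 0.19). The highest stable value of both, 563 and 253 CPM, was in stable 1, and without it they stood at -0.22 and -0.17. The receptor gene Erbb3 was at 231, 205, 259, 226, 215, 302 and 315 CPM in relapse and 453, 350.0, 283, 314, 168, 343 and 398 CPM in stable tumours (-0.397 ± 0.199, unadjusted p = 0.0593). Irs2, an adaptor of the insulin receptor (0.14 ± 0.19), Insr, that receptor (-0.091 ± 0.11), and the cell cycle inhibitor Cdkn1b (-0.12 ± 0.13) had intervals within 2-fold.

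Pik3ca was at 541, 489.7, 559, 341, 849, 481 and 929 CPM in relapse and 368, 822, 743, 808, 253, 754 and 1380.5 CPM in stable tumours (-0.29 ± 0.28, 95% interval -0.88 to 0.298), and counts here may come from the mouse gene or from a transgene. The PI3K inhibitor gene Pik3ip1 was at -0.11 ± 0.401. In the list of 12 genes of class I PI3K subunits and their regulators, 0 had an unadjusted p under 0.05. Of 18 AKT and mTOR genes, Akt1 (0.21 ± 0.086) was higher, and Rictor and Tsc1 (-0.17 ± 0.079), which restrains mTORC1, were lower at that p.

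Proliferation and metabolism genes overlapped between the groups. The proliferation marker Mki67 was at 505, 998, 949, 1054, 836, 836 and 869.5 CPM in relapse and 1189, 1000.4, 1118, 1158, 354, 981 and 615 CPM in stable tumours (-0.085 ± 0.36), and 0 of 25 cell cycle genes had an unadjusted edgeR p under 0.05, with a list median of -0.19, or 0.13 without stable 1; the replication clamp gene Pcna was at -0.36 ± 0.32. Vehicle tumours held 151 to 1098 CPM of Mki67. The lists of 23 cholesterol synthesis, 16 fatty acid synthesis, and 24 NRF2, glutathione and antioxidant genes likewise had 0 such genes, with medians of -0.035, 0.297 and 0.01. The fatty acid synthase Fasn was at 1328, 516, 1134, 181, 1093, 455 and 1421 CPM in relapse and 127, 606, 785, 631, 380.2, 506 and 605 CPM in stable tumours (0.75 ± 0.45), with relapse 1, 3, 5 and 7 above all stable tumours. Hypoxia genes had 1 of 15 at that p, Vegfa, and 0 without stable 1. Oxidative phosphorylation genes had 1 of 22 and a median of 0.069, against 7 of 22 and a median of 0.23 without stable 1. Over all genes, 787 of 15914 were at that p in either direction without stable 1. With the fast-fibre score as a covariate, the oxidative phosphorylation list had 0 of 22 and a median of 0.023. Within title digit 3, fatty acid synthesis had 7 of 16 and oxidative phosphorylation 5 of 22 higher. That set holds relapse 1, 3, 5 and 7, the relapse tumours high in Fasn, and leaves out relapse 2, 4 and 6. When single tumours were left out instead, fatty acid synthesis had 0 to 1 higher. Over all genes, 1335 of 15684 were at that p in either direction within digit 3, against 751 of 15792 with all tumours. The lists of D cyclins and their kinases, immediate early genes, EGF and IGF ligands, EMT markers, antigen presentation, p53 targets and limb factors had 0. Lists of receptor tyrosine kinases, NOTCH, hedgehog, FGF ligands, autophagy, BCL2 family and integrins had 1 or 2 such genes each. The counts of these lists moved by up to 3 genes when single tumours were left out. Without stable 1, the NOTCH and hedgehog lists had 0 such genes, and the BCL2 family list had 0 lower and 1 higher, against 2 lower and 0 higher with it. Across the 55 lists, 0 of 806 distinct genes tested passed the adjusted test.

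The marker lists of other cell types overlapped between the groups. Of 15 luminal genes, 0 had a positive log2 fold change, and the median was -0.31, but 0 had an unadjusted edgeR p under 0.05. The luminal keratin gene Krt8 was at 166, 124, 244, 222, 236, 186 and 327 CPM in relapse and 999, 302, 201, 208, 121, 222 and 387 CPM in stable tumours (-0.698 ± 0.37; -0.16 without stable 1), and its partner Krt18 at -0.57 ± 0.34 and -0.086. Basal keratin Krt5 was at 113, 209, 171, 309, 209, 204 and 127 CPM in relapse and 9.56, 212, 142, 262, 126, 149 and 219 CPM in stable tumours, lowest in stable 1, and Krt14 at 372 to 1030.2 CPM in relapse and 105 to 759 CPM in stable tumours. The milk protein gene Glycam1 was at 80.8, 3.39, 1866, 9.58, 552, 115 and 60.3 CPM in relapse and 5.65, 37.6, 93, 28.1, 11.2, 27.4 and 415 CPM in stable tumours (2.12 ± 1.24), highest in relapse 3.

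**Figure D4:**
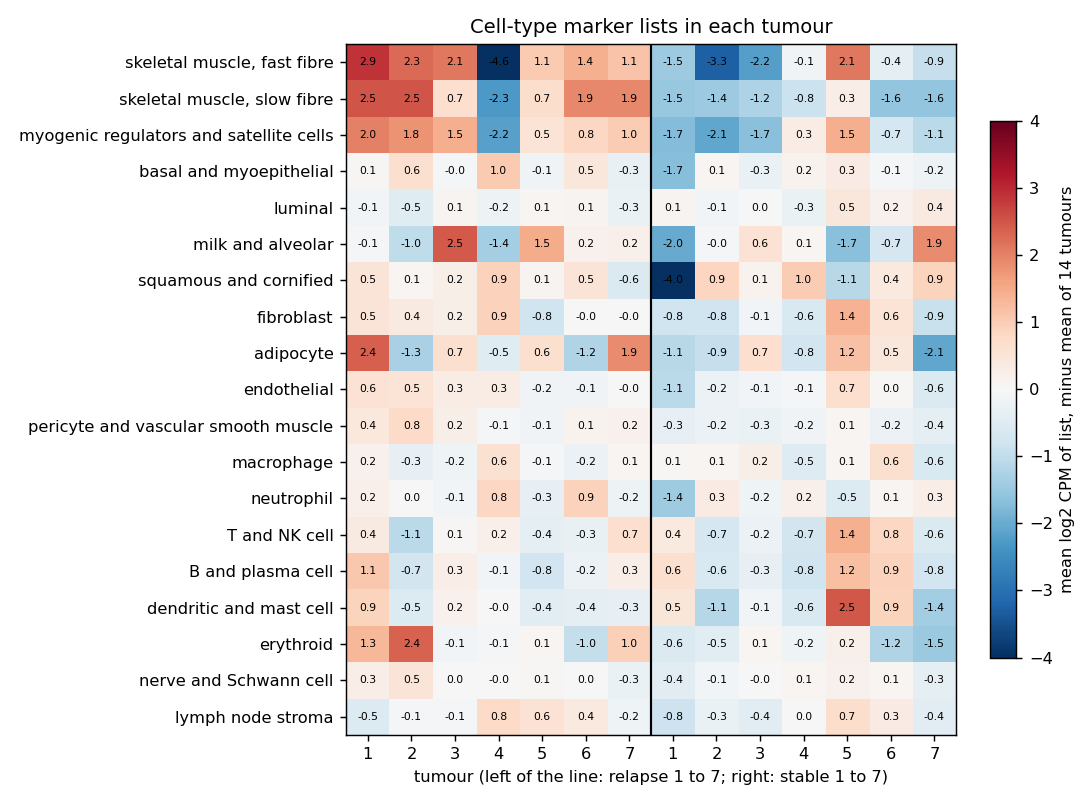
Scores of 19 cell-type marker lists, each the mean log2 CPM of its tested members minus the mean over the 14 tumours, for relapse 1 to 7 left of the line and stable 1 to 7 right of it. Red is above and blue below the mean of the 14 tumours; the 3 muscle lists are above it in all relapse tumours except relapse 4 and in stable 5, and the squamous list is low in stable 1.

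Immune markers showed few differences. Of 14 macrophage genes, Adgre1, the F4/80 antigen, was lower at an unadjusted edgeR p under 0.05, at 25.1 to 44.6 CPM in relapse and 24.5 to 71.5 CPM in stable tumours (-0.47 ± 0.22), and not when any of relapse 2, 3, 5 and 6 and stable 1, 5 and 6 was left out. Of 10 dendritic and mast cell genes, 1 was lower, the receptor gene Flt3, at 1.08, 0.49, 1.24, 0.698, 0.774, 0.934 and 0.564 CPM in relapse and 2.04, 0.376, 1.29, 0.604, 5.2, 3.32 and 0.468 CPM in stable tumours (-1.195 ± 0.51). Stable 5 was highest there and also in the mast cell protease genes Cma1 (25.4 CPM, 3.62 CPM at most in the other stable tumours) and Mcpt4 (26.7 and 4.98 CPM). Neutrophil (9 tested), T and NK cell (13), fibroblast (17) and endothelial (14) markers had 0 genes at that p, with medians of 0.32, -0.38, 0.15 and 0.33. Without stable 5 the T and NK median was -0.01, fibroblast genes had 3 higher and a median of 0.54, endothelial genes had 1 higher and a median of 0.51, and dendritic and mast cell genes had a median of 0.095, against -0.96 with it. Over all genes, 1430 of 15866 were at that p in either direction without stable 5. With all tumours, 14 basal, 13 milk, 16 squamous and 3 B cell genes also had 0 at that p. Pericyte and nerve lists had 1 gene each. The pericyte gene was Des, which is also in the myogenic list described above. The milk median ran from -0.092 to 1.05 when single tumours were left out, lowest without relapse 3 and highest, with 3 genes at that p, without stable 7.

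Of 19 tested Hox genes, 4 were higher at an unadjusted edgeR p under 0.05, against 2.39% of all genes, with a median of 0.54. The count ran from 1 to 7 and the median from 0.39 to 1.07 when single tumours were left out, with 1 gene without relapse 2 and 7 without stable 5. Over all genes, 1430 of 15866 were at that p in either direction without stable 5. Hoxb5 was at 0.94, 1.07, 0.716, 1.1, 0.435, 0.882 and 0.564 CPM in relapse and 0.0434, 0.108, 0.144, 0.385, 0.894, 0.352 and 0.0935 CPM in stable tumours (1.49 ± 0.52), and Hoxa7 at 0.629 to 2.76 and 0.11 to 0.999 CPM (1.07 ± 0.43). Hoxc10 was at 0.047, 5.75, 0.0477, 3.64, 0.0484, 2.65 and 0 CPM in relapse and 0.0869, 0.484, 1.37, 0, 0.0559, 0 and 0 CPM in stable tumours; relapse 2, 4 and 6 and stable 3 exceeded 1 CPM. HOX genes mark position along the body, and the titles give tumours different digits and letters whose meaning the labels do not state. Among the 4 relapse and 3 stable tumours with the digit 3 in their titles, edgeR called 0 genes, Myh7 was at 8.85 (adjusted p = 0.167), H19 at 0.77 and Nf1 at -0.21. Within the shared codes, relapse 5 differed from stable 5 by 3.99 and relapse 6 from stable 7 by 9.296 on the log2 scale in Myh7, and by -0.29 and -0.24 in Nf1.

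Several apparent differences rested on single tumours. Met, the receptor of hepatocyte growth factor (Entrez gene 17295, chromosome 6, 17463349 to 17573980), was at 259, 192, 218, 276, 239.5, 237 and 359 CPM in relapse and 13690.5, 247, 249, 248, 292, 280.1 and 347 CPM in stable tumours. Stable 1 held 55.1 times the median of the other 13 tumours, and without it the log2 fold change was -0.12, against -3.11 with it. Neighbouring genes shared the pattern. Capza2, an actin capping subunit, was at 11522 CPM in stable 1 and at 184 to 276 CPM in the others, Tes at 5885 CPM and at 55.2 to 124 CPM, and Lsm8 at 1481 CPM and at 10.1 to 21.8 CPM.

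Cav2 and Mdfic stood at 28.8 and 20.03 times, Cav1 at 6.81, Tspan12 at 4.15 and St7 at 2.29 times the median of the other 13. Tfec, between Mdfic and Tes, was at 1.03 times and Cttnbp2, between St7 and Lsm8, at 0.139 times. Of the 26 tested genes within 5 Mb of the Met start, 6 were above 10-fold, all between 15720566 and 18854052 on chromosome 6, a span of 3.13 Mb. Those 6 genes took 3.52% of the scaled total in stable 1 and 0.0594 to 0.0832% in the other tumours. Stable 6, which shares the title code of stable 1, had 280.1 CPM of Met, and vehicle tumours had 188 to 413 CPM. Copy number was not measured.

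**Figure D5:**
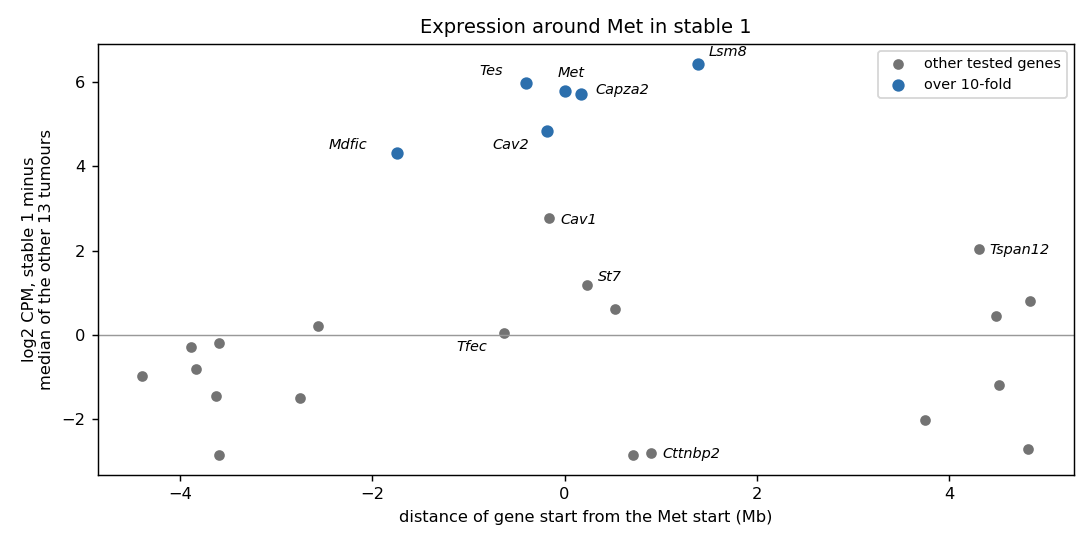
Log2 CPM of stable 1 minus the median of the other 13 tumours for the 26 tested genes within 5 Mb of the Met start, against the distance of each gene's start from that of Met. The 6 blue points above 10-fold lie between 1.74 Mb before and 1.39 Mb after Met, with Tfec near 0 and Cttnbp2 below 0 among them.

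Stable 1 also held the interferon-induced chemokines Cxcl11, Cxcl10 and Cxcl9 at 127, 74.1 and 199.8 CPM and the antiviral gene Rsad2 at 186 CPM. Relapse tumours held at most 0.733, 2.32, 22.7 and 33.5 CPM of these, and the other stable tumours at most 0.955, 1.91, 14.7 and 36.2 CPM. Cxcl10, Cxcl9 and Rsad2 were the 3 of 19 interferon genes lower in relapse tumours at an unadjusted edgeR p under 0.05, and 0 of the 19 were at that p without stable 1. That count was at most 5 when other single tumours were left out. Trib3, a target of the stress factor ATF4, was at 138 CPM in stable 1 and at most 12.9 CPM elsewhere. The cornified epithelium genes Dsg1a and Spink5 were at 0.782 and 2.65 CPM in stable 1 and at 32.8 and 102 CPM or more in the other 13. A gene was at least 2 log2 units above all other tumours, at 10 CPM or more, 60 times in stable 1, 35 times in relapse 2, 11 times in stable 5 and 9 times in relapse 7. It was that far below all others 126 times in stable 1 and 1 time in relapse 4.

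Relapse 2 had the highest score of the WNT list (1.66) and stable 1 the lowest (-2.12). In that list 2 of 20 genes were higher at an unadjusted edgeR p under 0.05, against 2.39% of all genes. The count was 0 without relapse 2 and 3 without stable 1. The list median was 0.14 without relapse 2 and 0.40 without stable 1, against 0.57 with all tumours. The feedback inhibitors Apcdd1 and Nkd1 were at 396 and 221 CPM in relapse 2, at most 50.4 and 21.7 CPM in the other relapse tumours, and at most 60.6 and 26.9 CPM in stable tumours. Without relapse 2 they stood at 0.304 and 0.18, against 1.3995 and 1.77 with it. The WNT target Axin2 (395 CPM), the inhibitor Dkk4 (15.2 CPM) and the matrix gene Spock2 (175 CPM) were also highest in relapse 2. Axin2 and Apcdd1 were lowest in stable 1, with Axin2 at 3.87 CPM. In the TGF-beta list, 2 of 20 genes, Bmp4 and its target Id3, were higher at that p (1.41 ± 0.64 and 1.01 ± 0.48). Without relapse 2 they stood at 0.47 and 0.47. The list's count was 0 to 4 when single tumours were left out, and it was 0 without relapse 2 and also without stable 1. Single genes of other lists at that p included the cytokine Il6 (1.19 ± 0.56), the matrix protease Mmp14 (0.55 ± 0.25) and the lysosomal regulator Tfeb (0.54 ± 0.21). In relapse 7, March10 and Cyp2d10 were at 89.6 and 54.1 CPM, with at most 0.998 and 1.72 CPM in the other relapse tumours and at most 1.08 and 3.77 CPM in stable tumours.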

How the data were processed

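RNA of 21 snap-frozen mammary tumours (7 per group) was sequenced as stranded, polyadenylated libraries with single 50-base reads, per the labels' protocols. The authors deposited raw counts per gene in 1 table. The submitters' processing notes name STAR 2.5.2a, SAMtools 1.3.1, Picard 2.9.2, edgeR and the build mm10; the counter, annotation, use of strand and handling of multiply matching reads are not stated in the sources used here. In 10202 of 24028 rows an extra cell precedes the data, and rows were therefore parsed from the right, taking 25 cells. Genes were placed on RefSeq GRCm38.p6 by Entrez number (23968 matched), and 14 genes without a symbol kept their number.

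Genes were kept by edgeR's filterByExpr, and counts were scaled by TMM and fitted with edgeR 4.0.16 (R 4.3.3) in a quasi-likelihood model over all 21 tumours, with the contrast relapse minus stable and Benjamini-Hochberg adjustment (threshold 0.05). The steps were tested on simulated data. SE is the fold change divided by the root of F. Total counts, 13337848 to 24873844, set the counting error. The groups come from the titles. Whether tumours are from separate animals is not stated for each, and p-values measure the spread between these tumours. Any 2 tumours of 1 group differed by at least 17.6 times the sampling noise (chi-square per degree of freedom), so none was counted as a repeat. The lowest value was between stable 2 and 3, which share a title code.

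The tumours, gene lists and rules were chosen with earlier results of these data known. Named genes are 11 fixed genes, the 12 lowest p-values in each direction at a mean log2 CPM of at least 1 (predicted genes left out), and the 3 lowest in each list described. Genes outside this rule were chosen after their values were seen: Tnni1, Tnnt1, Myh4, Ckm, Ttn, Fhl1, Cox7a1, Cox8b, H19, Igf2, Nol6, Idh2, Mir5046, Kdm5a, Nek1, Zfp959, Fbxo18, 1810011O10Rik, Terf1, Axin2, Dkk4, Spock2, Krt5, Krt14, Epcam, the neighbours of Met other than Lsm8, Capza2 and Tes, March10, Cyp2d10, Mcpt4, Dsg1a and Spink5. Alternatives were other scalings (DESeq2 1.42.0 size factors, upper quartile, muscle genes left out), no filter, DESeq2's Wald test, limma 3.58.1 voom with sample weights, other sets of tumours, the title code, digit and replicate number in the model, a muscle score as a covariate, and leaving out each tumour. Some named items are not reported here.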

Additional observations from a re-analysis of the deposited data

Results flagged for a closer look

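Of 230 pairs of a named gene and a group, 43 (18.7%) were flagged by Dixon's criterion, computed on log values. In these, 1 tumour's gap to the nearest other of its group was large against the group's range. By chance, about 1 in 20 groups is flagged. Some named genes were picked because 1 tumour stood apart. Values are CPM.

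Relapse 4 was low in 10 muscle genes: Ankrd2 (0.0499), Acta1 (169), Myh2 (2.49), Myh1 (4.09), Myh4 (5.59), Myh3 (0.0998), Chrna1 (0.15), Des (9.18), Ckm (0.399) and Ttn (80.4). Relapse 2 was high in 5 genes, Apcdd1 (396), Nkd1 (221), Dkk4 (15.2), Spock2 (175) and Id3 (60.8). Relapse 7 was high in March10 (89.6) and Cyp2d10 (54.1), and relapse 1 was low in Mki67 (505).

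Stable 1 accounted for 22 of the 43. It was high in Met and genes near it, Met (13690.5), Capza2 (11522), Tes (5885), Lsm8 (1481), Mdfic (1373), Cav2 (1255) and Tspan12 (210.1). It was also high in Nf1 (597), Dusp6 (535), Cxcl11 (127), Cxcl10 (74.1), Ccng2 (253), Trib3 (138), Krt18 (1478) and Nek1 (140.2). It was low in Cdkn1b (125), Fasn (127), Axin2 (3.87), Krt5 (9.56), Dsg1a (0.782), Spink5 (2.65) and Mmp14 (79.4). Stable 5 was high in Cpt1b (11.7) and Fhl1 (103), and stable 4 was low in Hoxa7 (0.11).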

How the results depend on the processing

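edgeR called 0 of 15792 genes, and 26 of 29 alternatives also called 0. The 29 include a fold limit on the called genes, which could only give 0. DESeq2's Wald test called 6 genes. Leaving out 1 tumour at a time gave 0 to 4 genes, with 4 without relapse 4 and 1 without stable 5; the cause was not tested. The replicate block called 0 genes. The title numbers did not pair the tumours: same-number correlations of deviations ran from -0.287 to 0.154, 1 of 7 pairs was over 0.1, and 0 relapse tumours correlated best with their own number. Tumours sharing a title code had a pooled correlation of -0.0397, but single codes differed. Pairs among stable 2, 3 and 4, which share a code, were 17.6, 20.3 and 23.0 times the sampling noise apart. Stable 1 and 6, which share another, were 297 times apart, and stable 3 and 6, of different codes, 22.9 times. The pooled value therefore does not show that tumours of 1 code are independent. The code as a random effect or summed counts per code gave 0 calls. The lowest adjusted p was 0.98 with the random effect (limma voom) and 0.963 with summed counts (edgeR), against 0.125 in the main edgeR fit. Of 3227 values of 116 named genes under the alternatives, 93 had another sign, in 27 genes, 11 passed the threshold and 0 did both. Genes at an unadjusted p under 0.05 numbered 751, against 514 with the replicate block, 425 with the muscle score, 1187 with the title digit as a covariate, 1335 within digit 3, 1072 without vehicle 2, 6 and 7, and 1881 with sample weights. Without stable 5 they numbered 1430. A fold limit had nothing to act on.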
